A study of Homo sapiens with 2 samples.

Results

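The 36 genes described here act in copying DNA or in making its building blocks, and were chosen by name from the 19826 genes of the count table. All 36 were found. They comprise 9 subunits of the replicative helicase, 4 genes that license or fire origins, 7 genes of the sliding clamp, its loader, primase and lagging strand, 4 genes of single-stranded DNA and the fork checkpoint, 6 genes of nucleotide metabolism and 6 genes of chromatin copying. They were measured in single cells of the human breast cancer line MDA-MB-231, which is established and of the triple-negative class. Flat cultures had been kept in high-glucose medium with metformin at 0 mM or 2 mM for 30 days and were then grown as floating mammospheres for 10 days on low-attachment plates and taken apart with trypsin and EDTA. Transcripts were captured on beads, amplified on them and made into Nextera XT libraries. Metformin is a biguanide drug used in type 2 diabetes. There was 1 library per dose, so no difference has a replicate check, no test was run, and dose, culture and library preparation cannot be told apart.

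During G1 the origin recognition complex, CDC6 and CDT1 load the MCM2-7 ring onto DNA. At the start of S phase CDC45 and the GINS complex join the ring to make the active helicase. Primase starts each strand, the RFC complex loads the PCNA ring that tethers the polymerases, and FEN1 trims the flaps left between lagging strand pieces. Ribonucleotide reductase (RRM1 and RRM2), thymidylate synthase (TYMS) and thymidine kinase (TK1) supply deoxynucleotides, while DUT removes dUTP and UNG removes uracil that has entered DNA. Transcription of many of these genes is known to rise at the G1 to S transition through E2F factors.

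Sequence around the start site held an E2F core in most of these genes. RefSeq promoter entries (GRCh38.p14, 300 bases around the start) were found for 30 of the 36 genes, and 26 of those 30 (86.7%) held at least 1 E2F core on either strand, against 15.3% of all 27305 genes with an entry. A gene counted if any of its entries held a core. By entry, 29 of 44 (65.9%) held one, against 13.0% of all 35116 entries. CDC45, FEN1, NASP and SLBP held none, and in CDC6, GINS1 and MCM2 the cores lay after the start site. A core was searched as TTCCCGC, with TTCGCGC as its first variant, TTGCCGC as another and TTGGCGC as the last, and neighbouring matches may overlap. The NF-Y box CCAAT was held by 66.7% of the members and 39.7% of all genes, and the Sp1 box GGGCGG by 76.7% and 48.3%. The cell cycle homology region, searched as TTTGAA and TTCGAA, was held by 13.3% and 19.5%. A match is a description of letters and not a binding site. The 100 bases before the start site are shown for 8 members whose values are described below, for each the entry with an E2F core in that stretch, with the cores in capitals.

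PCNA: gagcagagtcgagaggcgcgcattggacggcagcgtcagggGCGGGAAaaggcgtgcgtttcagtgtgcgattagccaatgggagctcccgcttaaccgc
RFC3: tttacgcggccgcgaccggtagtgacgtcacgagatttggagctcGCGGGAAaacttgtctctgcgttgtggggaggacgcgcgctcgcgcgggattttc
MCM6: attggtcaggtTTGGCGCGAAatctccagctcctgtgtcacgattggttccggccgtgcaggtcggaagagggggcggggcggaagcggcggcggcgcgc
CDT1: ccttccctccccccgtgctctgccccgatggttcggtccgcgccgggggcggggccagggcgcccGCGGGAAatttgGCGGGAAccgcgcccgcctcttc
TYMS: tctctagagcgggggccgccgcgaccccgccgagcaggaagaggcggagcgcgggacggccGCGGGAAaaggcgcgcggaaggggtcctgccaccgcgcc
TK1: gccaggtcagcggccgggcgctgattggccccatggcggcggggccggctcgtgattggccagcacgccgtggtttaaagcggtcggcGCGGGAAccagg
DUT: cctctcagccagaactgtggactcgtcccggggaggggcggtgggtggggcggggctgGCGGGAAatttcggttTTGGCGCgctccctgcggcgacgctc
HELLS: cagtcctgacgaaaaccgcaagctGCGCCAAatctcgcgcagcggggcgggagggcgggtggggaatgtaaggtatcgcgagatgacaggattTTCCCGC

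The PCNA stretch lies at chr20:5126623-5126722 on the minus strand. The RFC3 stretch lies at chr13:33818049-33818148 on the plus strand. The MCM6 stretch lies at chr2:135876444-135876543 on the minus strand. The CDT1 stretch lies at chr16:88803689-88803788 on the plus strand. The TYMS stretch lies at chr18:657553-657652 on the plus strand. The TK1 stretch lies at chr17:78187053-78187152 on the minus strand. The DUT stretch lies at chr15:48332097-48332196 on the plus strand. The HELLS stretch lies at chr10:94545688-94545787 on the plus strand. In PCNA, RFC3, CDT1, TYMS, TK1 and DUT a core reads GCGGGAA, the reverse complement of TTCCCGC, within 100 bases of the start. CDT1, DUT and HELLS each held 2 separate cores here, and in MCM6 a pair of cores overlaps. MCM4, MCM5, CCNE2, RPA2, POLD3 and ATAD2 had no entry.

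The 0 mM library held 1000 cells with 4403045 unique molecular identifiers (UMIs, tags that mark single captured transcripts) and the 2 mM library 991 cells with 3264343, with medians of 3386 and 2509 UMIs per cell. No barcode was shared by the libraries. A cell here is a deposited barcode. Of these, 96 and 95 end in an uncalled base, and merging barcodes 1 base apart would leave 931 and 883, so some cells may be counted more than once. The mesenchymal marker VIM was abundant in both, at 3271 and 1596 CPM (a gene's UMIs per 1000000 UMIs of the library), as was CD44, at 372 and 262 CPM, and ESR1, PGR and CDH1 had 0 to 2 UMIs, as did the leukocyte marker PTPRC. EPCAM, also listed beforehand as low in this line, had 126 and 139 UMIs (28.6 and 42.6 CPM). The leukocyte marker LYZ had 7 and 2 UMIs, and the fibroblast markers COL1A1, COL1A2 and DCN had 0 to 10. The 36 genes took 0.287% of all UMIs at 0 mM and 0.274% at 2 mM, from 12627 and 8928 UMIs. All intervals in brackets are 95% counting intervals. They leave out the spread between cells and cultures and are too narrow for that reason.

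Over all cells the replication genes were close to level between the doses, with CDC6 as the one member past 1.5-fold. Of the 36, 20 reached the minimum of 50 CPM in either library and 50 UMIs over both. Of these 20, 1 was at least 1.5-fold lower at 2 mM, beside 3.31% of the 4105 genes compared, and 0 were at least 1.5-fold higher, beside 5.04%. Ratios of 2 mM over 0 mM were below 1 for 12 of the 20, beside 47.4% of all genes, with a median log2 ratio of -0.05 against 0.02 over all genes. Counting intervals lay below 1 for 8 of the 20, beside 23.4% of all genes, and above 1 for 4, beside 27.1%. With no minimum, 23 of the 36 ratios were below 1 and the median was -0.12. With TMM factors in place of library totals 27 of the 36 were below 1, with each cell weighted equally 28 were, and with the deepest 5% of barcodes left out 29 were. Among the 20, those at least 1.5-fold lower were then CDC6 and RFC4 with TMM factors, and CDC6, RFC4 and TK1 in each of the other settings named. The TMM factors, 0.970 at 0 mM and 1.03 at 2 mM, lower the ratio of every gene alike. No share of all genes was computed in these settings, so their counts are not read as particular to the members. Fewer cells in S phase and less RNA per such cell cannot be told apart in sums over all cells.

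The helicase genes went both ways. MCM3 had 143 CPM (132 to 154) at 0 mM and 166 CPM (152 to 180) at 2 mM, a ratio of 1.16 (1.03 to 1.30). MCM6 had 59.5 and 72.3 CPM, a ratio of 1.21 (1.01 to 1.45). MCM4, a subunit of the same ring, had 78.6 and 61.9 CPM, a ratio of 0.787 (0.659 to 0.939). MCM7 had 122 and 119.8 CPM, and its interval included 1. MCM2, MCM5, CDC45, GINS1 and GINS2 were below the minimum, with ratios from 0.871 to 1.24 and intervals that all included 1. The subunits of one complex therefore did not share a direction in sums over all cells, and values inside classes of cells follow below.

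Among the origin licensing genes, CDC6, the loader of the MCM ring, had 54.7 CPM (48.0 to 62.1) at 0 mM and 33.4 CPM (27.4 to 40.3) at 2 mM, a ratio of 0.610 (0.482 to 0.768). This rests on 241 and 109 UMIs. CDT1, its partner in loading, had a ratio of 0.847, the S-phase cyclin gene CCNE2 one of 0.742 and DTL, which targets CDT1 for destruction during S phase, one of 1.39. These 3 had 49 to 100 UMIs per library, were below the minimum, and had intervals that included 1.

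PCNA, the sliding clamp, had 181 CPM (169 to 194) at 0 mM and 181 CPM (167 to 197) at 2 mM, a ratio of 0.999 (0.897 to 1.11). The clamp loader subunit gene RFC4 had 68.8 and 48.4 CPM, a ratio of 0.703 (0.577 to 0.855), while RFC2 (0.915) and RFC3 (1.18) were below the minimum with intervals that included 1. The flap nuclease gene FEN1 had 99.2 and 83.3 CPM, a ratio of 0.840 (0.719 to 0.979). POLD3, an accessory subunit of polymerase delta, had 53.8 and 53.9 CPM. PRIM1, the catalytic subunit of primase, had 39.5 and 30.0 CPM, below the minimum, with a ratio of 0.760 (0.587 to 0.979). Clamp and polymerase subunit were thus level while RFC4 and FEN1 were lower by less than 1.5-fold.

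RPA2, a subunit of the complex that coats single-stranded DNA, had 134 and 105 CPM, a ratio of 0.785 (0.685 to 0.898). CLSPN, the fork checkpoint mediator claspin, had 89.5 and 82.7 CPM with an interval that included 1. TIPIN, of the fork protection complex, and RAD51AP1 were below the minimum, at 1.07 and 0.913.

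In nucleotide metabolism, genes of thymidine supply and the gene that removes dUTP lay on opposite sides of 1. TYMS had 282 CPM (266 to 298) at 0 mM and 209.5 CPM (194 to 226) at 2 mM, a ratio of 0.743 (0.676 to 0.817). TK1 had 125 and 91.6 CPM, a ratio of 0.731 (0.633 to 0.843). DUT had 201 CPM (188 to 214) and 255 CPM (238 to 273), a ratio of 1.27 (1.16 to 1.40). Of the reductase subunits, RRM1 had 111 and 112 CPM and RRM2 had 72.2 and 59.4 CPM, ratios of 1.01 (0.880 to 1.16) and 0.823 (0.685 to 0.987). UNG was below the minimum, at 48.8 and 37.7 CPM, a ratio of 0.772 (0.613 to 0.968). DUT has 8 pseudogenes by name, and PCNA, TYMS, RRM2, UNG, FEN1, RFC3, RPA2 and RAD51AP1 have others. Exons of TYMS overlap ENOSF1 on the other strand, as MCM7 does AP4M1 and RFC4 does EIF4A2, and exons of FEN1, RRM2 and PRIM1 overlap other genes on the same strand. Whether counting used strand is not given in the sources used here. Their counts are uncertain to that extent.

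Of the chromatin genes, NASP, a chaperone of histone H3 and H4, had 233 CPM (219 to 248) and 271 CPM (254 to 290), a ratio of 1.16 (1.06 to 1.28). HELLS, a chromatin remodeler, had 89.5 and 90.1 CPM. ATAD2, a bromodomain ATPase, had 131 and 124 CPM, and SLBP, which binds the stem-loop of histone mRNA, had 99.7 and 104 CPM, all 3 with intervals that included 1. UHRF1, which reads hemimethylated DNA, had 25 and 22 UMIs. CHAF1B, of the chromatin assembly factor CAF-1, had 51 and 30 UMIs, too few to place.

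**Figure D1:**
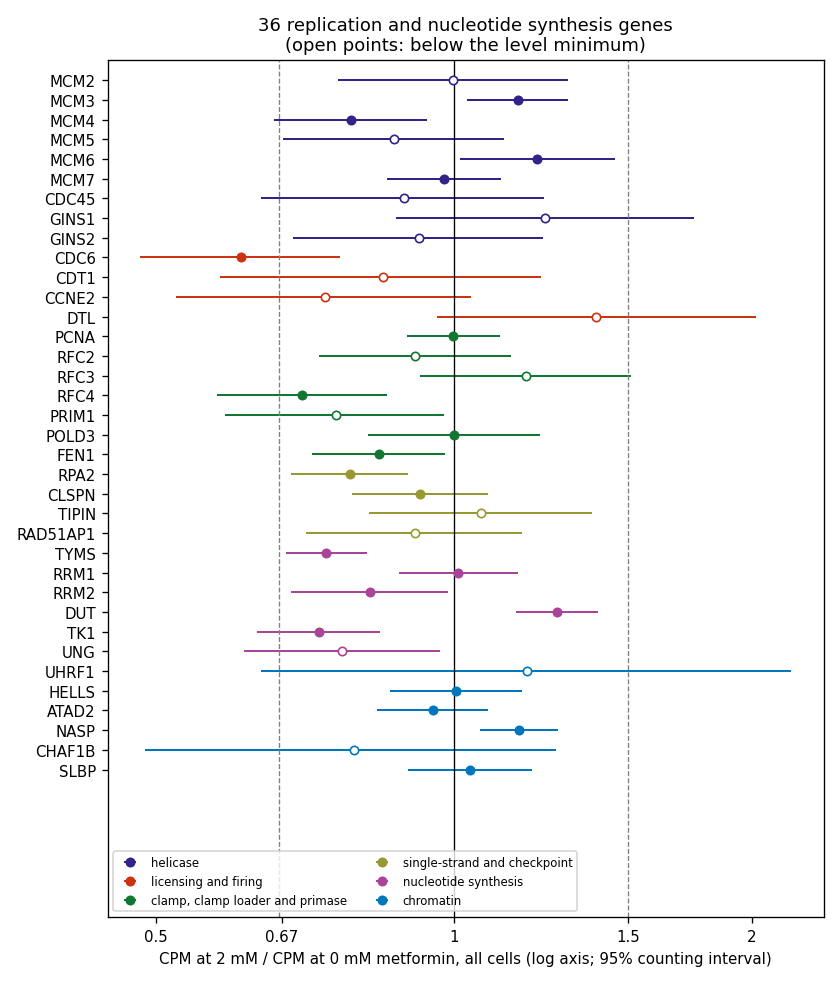
Ratio of CPM at 2 mM over 0 mM over all cells for each of the 36 genes, on a log axis, with 95% counting intervals, coloured by role; open points are genes below the minimum and dashed lines mark 1.5-fold. CDC6, at 0.610, is the one filled point past a dashed line, and DUT, at 1.27, is the filled point farthest to the right.

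Since the cells differed in depth, 1000 UMIs were drawn at random from every cell that had them, which left 944 cells at 0 mM and 800 at 2 mM, and left out 56 and 191 shallower ones. A thinned cell held on average 2.69 ± 3.27 UMIs (SD over 944 cells) of the 36 genes at 0 mM and 2.33 ± 3.07 (SD over 800 cells) at 2 mM. No UMI of the 36 was found in 23.8% (21.1% to 26.7%) of cells at 0 mM and 25.4% (22.4% to 28.5%) at 2 mM. At 3 or more UMIs were 34.6% (31.6% to 37.8%) and 27.0% (24.0% to 30.2%). The share with 10 or more was 5.83% (4.42% to 7.52%) and 5.25% (3.81% to 7.03%), with intervals that overlap. The 10% of cells with most of these UMIs held 39.7% of them at 0 mM and 43.6% at 2 mM. The cells were ranked by these same UMIs, so a share above 10% is in part fixed by the choice. Its size was not compared with that of other genes.

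**Figure D2:**
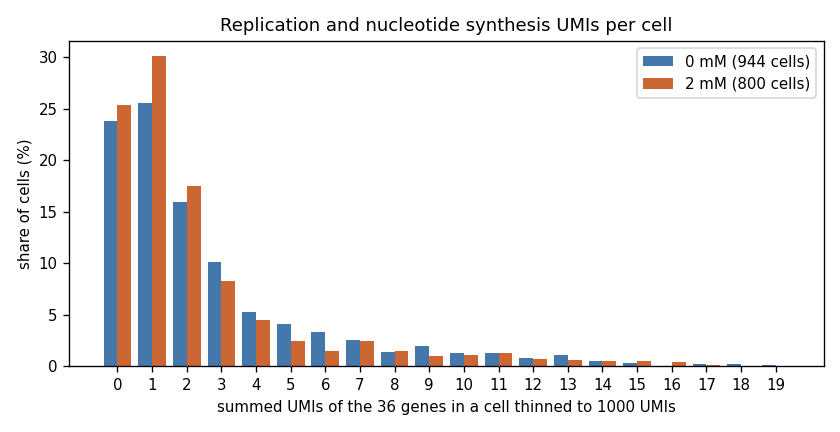
Share of cells (percent) by the summed UMIs of the 36 genes in a cell thinned to 1000 UMIs, for 944 cells at 0 mM and 800 cells at 2 mM. Both libraries peak at 0 to 2 UMIs with a long tail to 19 and 17 UMIs, and the 2 mM bars are higher at 1 and 2 UMIs.

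Shares of cells with a UMI moved with the levels for some genes and not for others. TYMS was seen in 18.1% of thinned cells at 0 mM and 13.9% at 2 mM (33.7% and 23.0% before thinning). DUT was seen in 15.1% and 19.1% (41.1% and 36.8% before thinning) and NASP in 16.1% and 20.8% (44.9% and 42.1% before thinning). For DUT and NASP the order before thinning, at unlike depths, was the reverse of that in CPM. In thinned cells with few cycle anchor transcripts (the class called neither below), TYMS was seen in 4.48% and 1.91% and DUT in 9.80% and 14.2%. NASP was seen there in 9.52% and 15% and PCNA in 7.28% and 5.18%. Before thinning, the median depths of these cells were 3445 and 2937 UMIs. PCNA, with equal CPM, was seen in 16.2% and 11.8% (35.2% and 25.4% before thinning), so no order is read from its share.

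Thinned cells were then classed by genes that are not among the 36. A cell with at least 3 UMIs of 34 S-phase anchor genes and at least 3 of 56 G2/M anchor genes is called an S and G2/M cell here, and a cell under 3 for each is called a cell with neither. At 0 mM 258 of 944 cells (27.3%, 24.5% to 30.3%) were S and G2/M cells, and at 2 mM 160 of 800 (20%, 17.3% to 22.9%). This difference of -7.33 points was -1.12 points at 500 UMIs per cell, and its interval included 0 in 8 of 19 alternative settings. Cells with neither made up 37.8% (34.7% to 41.0%) and 45.9% (42.4% to 49.4%). The rest were G2/M only (29.1% and 28.4%) or S only (5.72% and 5.75%). These classes are ranges of a count and not cell types. Within 1 UMI of a threshold were 73 and 35 of the S and G2/M cells, and 191 and 181 of the cells with neither. Because the class of such cells changes with the random draw, the thinning was run 10 times on the same cells, and ranges over these 10 draws are given beside the values of the draw described here. Over the draws the S and G2/M share ran from 26.2% to 28.6% at 0 mM and from 19.5% to 22.1% at 2 mM.

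Replication genes were higher in S and G2/M cells than in cells with neither in both libraries, in every member. Summed over the 36 genes, the level was 5649 CPM in S and G2/M cells and 1158 CPM in cells with neither at 0 mM, and 6800 and 1009 CPM at 2 mM. At 0 mM 19 of the 20 members compared were at least 1.5-fold higher in S and G2/M cells, beside 14.3% of 4100 genes, with a median log2 ratio of 2.28 against 0.09 over all genes. At 2 mM 20 of 20 were, beside 14.3% of 4099 genes, with a median of 3.04 against 0.04. All 36 genes were higher in both libraries in each of the 10 draws. The anchors mark the cell cycle too, so this is a description of genes that vary together.

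The members differed widely in how far they followed the cycle classes. Ordered by the lower bound of the interval in either library, RRM2, TYMS and TK1 came first and RPA2, TIPIN and SLBP last. RRM2 had 193 CPM in S and G2/M cells and 7.43 CPM in cells with neither at 0 mM, a ratio of 26.0 (14.3 to 52.7), and a ratio of 32.4 (16.1 to 76.3) at 2 mM. TYMS had ratios of 13.7 (10.8 to 17.7) and 27.3 (18.9 to 40.9), and TK1 ratios of 11.9 (8.38 to 17.5) and 36.8 (19.6 to 77.7). At the other end, RPA2 had ratios of 1.48 (1.21 to 1.82) and 2.73 (2.08 to 3.59), SLBP of 1.90 (1.5 to 2.43) and 2.03 (1.55 to 2.67), and TIPIN of 2.05 (1.34 to 3.21) and 2.07 (1.29 to 3.35). NASP (3.27 and 2.99) and DUT (3.22 and 4.41) were also nearer that end. Several genes with fewer UMIs were as steep or steeper, among them DTL (26.3 at 0 mM), CDC45 (16.5) and GINS2 (12.9), with wide intervals. RRM1, the partner of RRM2, had ratios of 6.24 and 7, so genes of deoxynucleotide supply were spread along the order. The helicase ring genes MCM2 to MCM7 had 3.18 to 4.54 at 0 mM and 4.31 to 8.59 at 2 mM. Of these, MCM2 and MCM5 were below the minimum over all cells.

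Cells with anchors of 1 kind lay in between. S only cells were at least 1.5-fold higher than cells with neither for 13 of 15 members compared at 0 mM, beside 8.85% of all genes, and for 7 of 9 at 2 mM, beside 9.17%. G2/M only cells were so for 10 of 19 members at 0 mM, beside 5.24%, and for 7 of 16 at 2 mM, beside 4.08%. The median log2 ratios were 0.93 and 1.09 for S only and 0.67 and 0.52 for G2/M only cells.

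The contrast of S and G2/M cells over cells with neither was larger at 2 mM. In the draw described, 33 of 36 members had the larger ratio at 2 mM, and over the draws 26 to 33 did. The same count over all genes was not made. Over all genes the median log2 ratio of this contrast was 0.09 at 0 mM and 0.04 at 2 mM. The median log2 ratio over the members ran from 2.16 to 2.42 at 0 mM over the 10 draws. At 2 mM it ran from 2.73 to 3.07. The draws reuse the same cells, so these ranges hold no spread between cells or cultures. In the draw described, 95% intervals of that median over genes were 1.87 to 2.64 at 0 mM and 2.14 to 3.69 at 2 mM. These overlap. PCNA had ratios over the draws of 4.35 to 5.77 at 0 mM and 6.76 to 9.71 at 2 mM, with 4.75 (3.87 to 5.87) and 9.71 (7.41 to 12.9) in the draw described, which gave its highest 2 mM value. HELLS had 4.41 to 6.05 and 9.47 to 17.3 over the draws. CLSPN had 9.97 to 15.1 and 15.5 to 48.0, the 2 mM values resting on few UMIs in cells with neither (7 in the draw described). POLD3 and NASP had the smaller ratio at 2 mM in each draw, POLD3 with 3.75 to 5.20 at 0 mM and 2.68 to 3.38 at 2 mM and NASP with 3.11 to 3.62 and 2.64 to 3.06. Median depth before thinning moved with this contrast, at 4020.5 and 3445 UMIs in the S and G2/M cells and the cells with neither at 0 mM and at 4363 and 2937 at 2 mM. So did the S anchors, at 5.51 and 0.849 UMIs per thinned cell at 0 mM and 6.08 and 0.790 at 2 mM. The part of depth and of the anchors in the result was not tested.

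**Figure D3:**
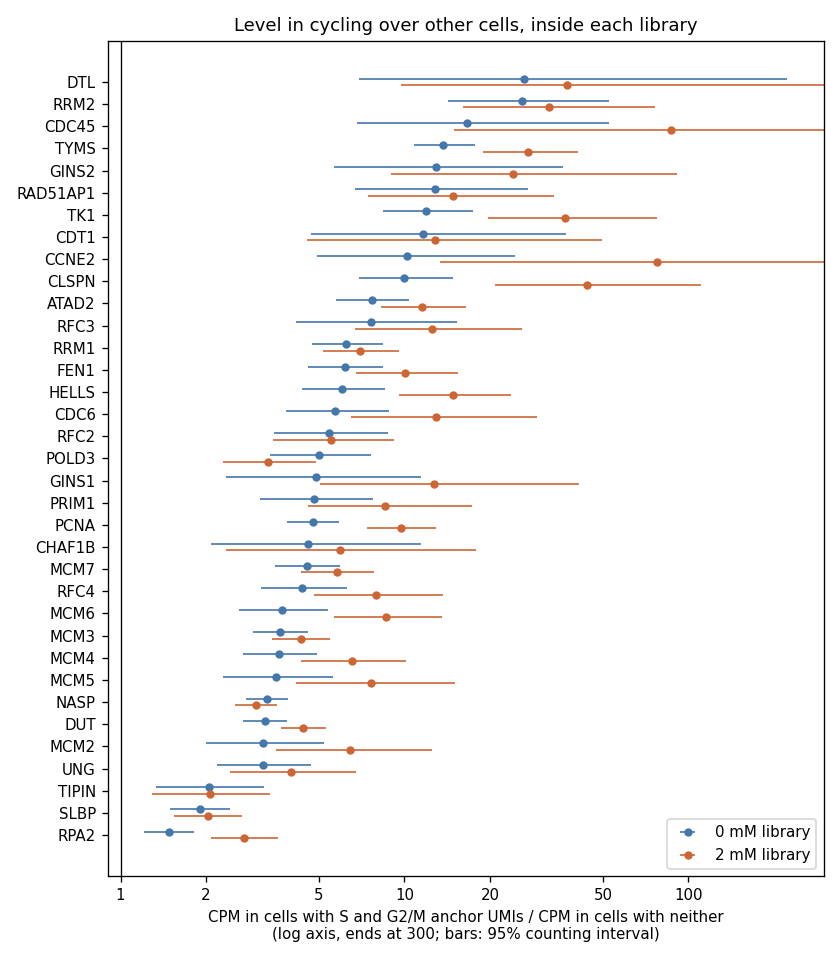
Ratio of CPM in S and G2/M cells over CPM in cells with neither inside each library, on a log axis with 95% counting intervals that are cut off at the axis end, for the 35 members with a UMI in cells with neither of both libraries. All points lie above 1, RPA2, SLBP and TIPIN at the bottom and RRM2 and DTL near the top at 0 mM, and most 2 mM points lie to the right of the 0 mM points.

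Inside the S and G2/M cells most replication genes had ratios above 1 at 2 mM, by small amounts. Over the 10 draws the median log2 ratio ran from 0.10 to 0.24 and 21 to 30 of 31 to 33 members past the minimum were above 1. The draw described gave the largest median of the 10. In it 28 of 33 members had ratios above 1, where 48% of 4295 genes were below 1, with a median log2 ratio of 0.24 against 0.02 over all genes. At least 1.5-fold higher were 6 (MCM6, GINS1, DTL, RFC3, DUT and HELLS), beside 8.2% of all genes, and 0 were at least 1.5-fold lower, beside 6.5%. With the deepest 5% of barcodes left out 19 of 32 were above 1 and the median was 0.15. At 2000 UMIs per cell 18 of 28 were above 1. The G2/M anchors went the other way in these cells, with 40 of 54 below 1, and the S anchors the same way, with 19 of 24 above 1; the part of either in the members' values was not tested. The size of the group difference thus changed with the cells kept and the draw.

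The counting intervals of PCNA, RFC3, MCM3, MCM6, DUT and HELLS lay above 1 in all 10 draws, which reuse the same cells. DUT went from 364 to 569 CPM in S and G2/M cells, a ratio of 1.57 (1.38 to 1.78), and 1.42 to 1.57 over the draws. MCM6 had 105 and 177 CPM, a ratio of 1.68 (1.33 to 2.13), and 1.40 to 1.68 over the draws. RFC3 had 61.7 and 109 CPM (ratios of 1.38 to 1.77 over the draws), HELLS 176 and 269 CPM (1.27 to 1.53), MCM3 258 and 352 CPM (1.25 to 1.42) and PCNA 366 and 477 CPM (1.17 to 1.30). All 9 helicase genes were above 1 in the draw described, where 48% of all genes were below 1. MCM4 was the lowest of them at 1.02, and above 1 in 6 of the 10 draws. On the other side, 3 members were below 1 in all 10 draws, CDC6 (0.69 to 0.83), TYMS (0.88 to 0.98) and UNG (0.75 to 0.96). Their intervals included 1 in most draws. For neither of these counts was a share of all genes over the draws computed. TYMS was thus close to level inside these cells, at 666 and 649 CPM, beside 0.743 over all cells.

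In cells with neither, levels were low and 24 of the 36 members had a median ratio over the draws below 1. Ratios were below 1 in each draw for 15 and above 1 in each for 5. Most of the 36 had few UMIs here, with 6 to 8 past the minimum over the draws. No share of all genes over the draws was computed beside these counts. In the draw described 6 passed the minimum, of which 2 were below 1, beside 44.6% of 4044 genes. Both, RPA2 and PCNA, were at least 1.5-fold lower, beside 4.48%, and 0 were at least 1.5-fold higher, beside 8.38%. The median of the members past the minimum was above 0 in 8 of the 10 draws, so the members with more UMIs there were not mostly below 1. RPA2, at 113 and 69.0 CPM, had a ratio of 0.608 (0.464 to 0.792), and 0.58 to 0.76 over the draws, with its interval below 1 in each. PCNA had 77 and 49.2 CPM, a ratio of 0.638 (0.461 to 0.877), and 0.64 to 0.96 over the draws. TK1, below the minimum with 34 and 10 UMIs, had ratios of 0.15 to 0.48 over the draws, with intervals below 1 in each. NASP, at 120.2 and 167 CPM, had a ratio of 1.39 (1.13 to 1.71), 1.29 to 1.59 over the draws. PCNA, level over all cells, was above 1 in S and G2/M cells and below 1 in cells with neither in each of the 10 draws. So were CDC45, CLSPN, GINS2, HELLS and MCM2, all below the minimum in cells with neither. How many of all genes did so was not computed. With the 2 mM cells weighted to the class shares of 0 mM, as described below, the ratio of PCNA over the classed cells was 1.21.

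DUT and NASP were the members above 1 in each draw in all of the 3 larger classes. DUT had ratios of 1.42 to 1.57 in S and G2/M cells, 1.08 to 1.67 in G2/M only cells and 1.10 to 1.36 in cells with neither. NASP had ratios of 1.11 to 1.27, 1.14 to 1.44 and 1.29 to 1.59 in the same order. CDC6 was below 1 in each draw in all 4 classes. In G2/M only cells 25 of the 36 members had a median ratio over the draws below 1, with 7 below 1 in each draw, among them TYMS, TK1 and RPA2, and 4 above 1 in each. Here 13 to 17 members passed the minimum over the draws, and no share of all genes was computed beside these counts. The median of the members past the minimum had no steady direction. It was -0.24 in the draw described, with 11 of 14 below 1 beside 48.5% of 4128 genes, and above 0 in 4 of the 10 draws. At least 1.5-fold lower were 6 of the 14, beside 6.54%, one of which, FEN1 at 0.553, was at its lowest of the draws (median 1.01), and 0 were at least 1.5-fold higher, beside 8.26%. S only cells were few, with 54 and 46 cells. Of 8 members past the minimum there 4 were below 1, beside 50.6% of 1499 genes, 2 were at least 1.5-fold higher, beside 10.9%, and 3 at least 1.5-fold lower, beside 11.2%.

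**Figure D4:**
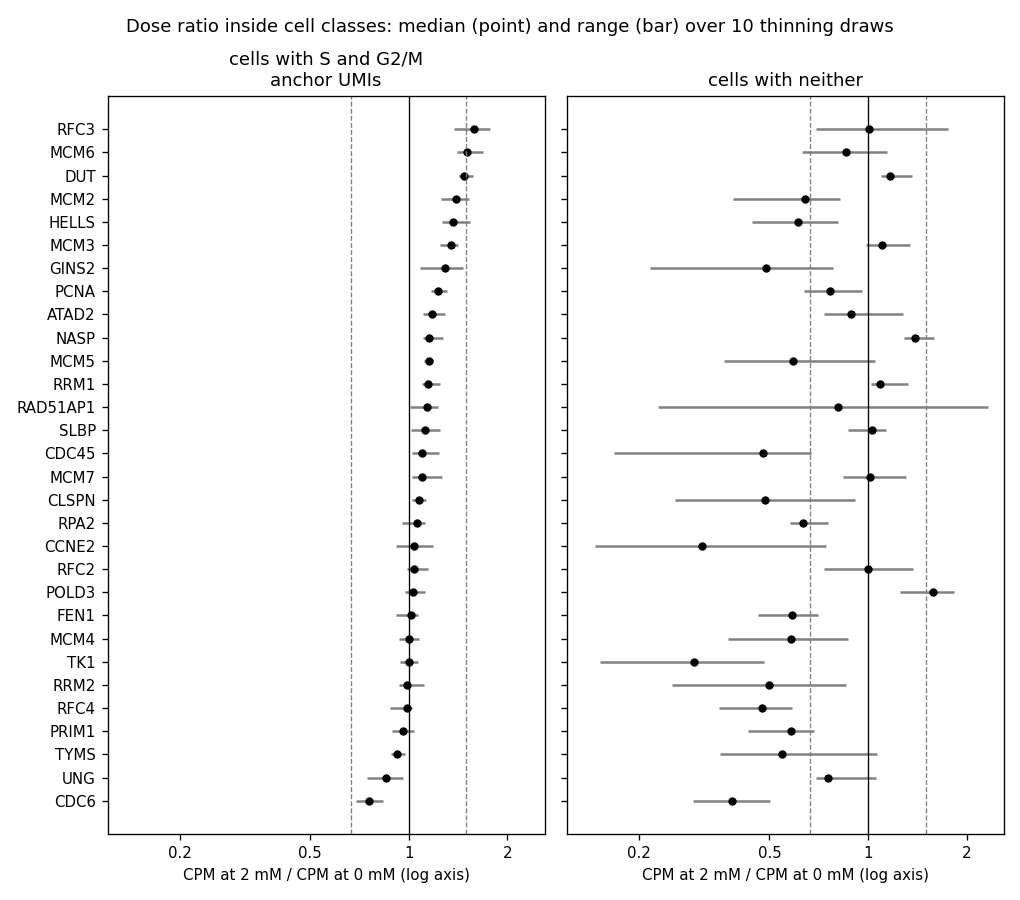
Ratio of CPM at 2 mM over 0 mM inside S and G2/M cells (left) and inside cells with neither (right), on a log axis, for the 30 members past the minimum in S and G2/M cells in all 10 thinning draws; points are medians and bars the range over the draws. On the left RFC3, MCM6 and DUT lie highest and CDC6 lowest, with narrow ranges; on the right most genes are below the minimum, ranges are wide and TK1 lies farthest below 1.

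When the 2 mM cells were weighted so that the 4 classes had the shares found at 0 mM, the median log2 ratio of the 20 members was 0.19, with 14 of 20 above 1. Without weights it was -0.05 over all cells. The weighted sums hold classed cells only, so the 56 and 191 shallower cells are left out of them. The part of this in the change was not tested. Over all 4110 genes compared with this weighting the median was 0.03 and 54.2% were above 1. CDC6 then had a log2 ratio of -0.46, so that none of the 20 was past 1.5-fold. TYMS went from -0.43 to -0.11. Each S and G2/M cell of the 2 mM library carried a weight of 1.37 in this and each cell with neither a weight of 0.824.

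The 36 genes varied together from cell to cell. For each member the correlation of its thinned count, on a log scale, with the summed count of the other 35 was computed over the cells of a library. Its median was 0.19 at 0 mM (944 cells) and 0.18 at 2 mM (800 cells), against 0.01 and 0.00 over 4085 other genes. All 36 were above 0 in both libraries, and 15 in each reached 0.2, as did 0.759% and 0.906% of the other genes. TYMS had the highest value in both, 0.44 and 0.40, followed at 0 mM by PCNA (0.34) and FEN1 (0.29) and at 2 mM by TK1 (0.32) and PCNA (0.31). By the lower of both libraries, SLBP (0.13 and 0.05) and TIPIN (0.05 and 0.10) were the lowest. Counts of a cell share its library and its thinned depth, and most counts are 0 or 1 UMI. Without cells at 3 or more G2/M anchor UMIs the medians were 0.09 and 0.05.

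Members were also seen together in the same cells. TYMS and TK1 were both seen in 44 thinned cells at 0 mM, where their separate shares would give 16.8, and in 22 cells at 2 mM, where they would give 6.11. PCNA and TYMS were both seen in 58 and 33 cells, where 27.7 and 13.0 would be given. Of the 630 pairs of members, 537 had a correlation above 0 at 0 mM and 514 at 2 mM, with medians of 0.058 and 0.060. Pairs of other genes were not computed, so these counts have no share beside them. Cells with 10 or more member UMIs held a mean of 9.53 different members at 0 mM and 9.17 at 2 mM, a range that the choice of cells by their UMIs largely fixes. Of these cells 89.1% and 95.2% were S and G2/M cells.

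Outside the 36, the 10 genes whose counts were most like theirs, ranked by the lower of both libraries, were TUBA1B (0.42 and 0.39), STMN1 (0.37 and 0.38), KIAA0101 (0.30 and 0.41), MLF1IP (0.28 and 0.32), TUBB, CDK1, TOP2A, MKI67, CENPF and HMGB2. KIAA0101 and MLF1IP are S anchors and the last 5 are G2/M anchors. Between doses, KIAA0101, the PCNA-associated factor, had a ratio of 1.03 (0.920 to 1.14) while CDK1, the mitotic kinase, had 0.623 (0.545 to 0.710). Of the G2/M anchors compared, 45 of 45 were below 1 over all cells and 14 were at least 1.5-fold lower, beside the 12 of 20 and 1 of 20 for the members.

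**Figure D5:**
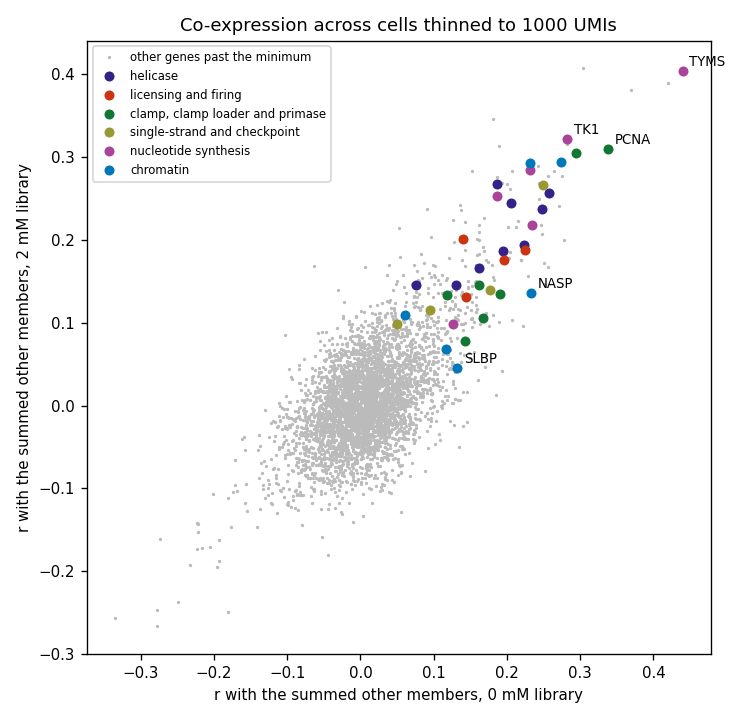
Pearson correlation across thinned cells of each gene with the summed other members, 0 mM library on the x axis and 2 mM library on the y axis, for the 36 members by role and 4085 other genes in grey. TYMS lies at the upper right at 0.44 and 0.40, and all 36 members lie above 0 on both axes.

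Other genes of the same pathways were close to level over all cells as well. Of 48 further replication genes 19 passed the minimum, 0 were past 1.5-fold in either direction, 11 were below 1, and the median log2 ratio was -0.02. ASF1A, a histone chaperone, was lowest at 0.689 (0.548 to 0.862), followed by RPA3 (0.818) and GMNN (0.850), the inhibitor of CDT1. POLD2 (1.12), RFC1 (1.10) and POLE3 (1.08) were highest. Of 33 further genes of nucleotide synthesis 15 passed, 0 were past 1.5-fold, 8 were below 1, and the median was -0.00. DTYMK, the kinase that follows TYMS and TK1 on the way to dTTP, was lowest at 0.721 (0.636 to 0.815), at 168 and 121 CPM, next to ATIC (0.830) and MTHFD1 (0.835). NME1, a nucleoside diphosphate kinase, was highest at 1.38 (1.27 to 1.5), followed by SAMHD1 (1.27), which breaks down deoxynucleotides, and PAICS (1.23) of purine synthesis.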

How the data were processed

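Single-cell libraries of MDA-MB-231 mammospheres at 0 mM and 2 mM metformin, 1 per dose, were compared. The authors deposited UMI counts for 19826 genes in 2000 barcodes; per the submitters' processing notes the tools were bcl2fastq and STAR 2.5.0a and the build hg19. For annotation, UMI collapsing and strand, the method is not given in the sources used here. A cell needed 500 UMIs and 300 genes to be kept. Counts were summed per library and scaled to CPM; a sum of 3 counts is 0.681 CPM at 0 mM and 0.919 CPM at 2 mM. Ratios carry exact conditional Clopper-Pearson intervals, sums exact Poisson and shares exact binomial (Clopper-Pearson) intervals, at 95%, which cover counting error only. Ratios were compared at 50 CPM in either library and 50 UMIs over both, by size (1.5-fold). Doublets were not called. The computation of the intervals, thinning and correlations was checked on simulated data. Promoter sequences and coordinates are those of a RefSeq GRCh38.p14 table, not of the build of the counts.

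Thinning draws were first seeded by a cell's rank after filtering. The seed was changed, after values had been seen, to the cell's place in the table, so that a filter no longer redraws every cell; the values given are those of the changed draw. The 8 further draws and the leaving out of 3 S anchors were added after seeing the data. The 36 genes, their roles, the anchors and the other lists were chosen with earlier results of these data known. All members could be named; full values are given for those past 1.5-fold, the 6 with the most UMIs and a further one per role, and up to 3 at each end of the other lists. The 6 members steady over the draws, the members at each end of the class contrast and those whose upstream sequence is shown were chosen after their values were seen. Python 3.11.15, numpy 2.4.6, scipy 1.17.1, pandas 2.3.3, matplotlib 3.10.9 and, for the normalization factors alone, edgeR 4.0.16 in R 4.3.3 were used. The alternatives tried are given in the closing section.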

Additional observations from a re-analysis of the deposited data

Results flagged for a closer look

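For 3 members the difference between the doses had opposite directions in 2 classes of cells, with counting intervals on opposite sides of 1 in the draw described. The difference between the classes was not tested. PCNA had a ratio of 2 mM over 0 mM of 1.30 (1.14 to 1.49) in S and G2/M cells and 0.638 (0.461 to 0.877) in cells with neither, from 504 and 388 UMIs and from 114 and 62 UMIs. Over the 10 draws its ratio was above 1 in all in S and G2/M cells and below 1 in all in cells with neither, with the interval below 1 in 4 of them. HELLS had 1.53 (1.27 to 1.85) in S and G2/M cells and 0.569 (0.371 to 0.855) in G2/M only cells. ATAD2 had 1.29 (1.10 to 1.5) in S and G2/M cells and 0.636 (0.440 to 0.909) in G2/M only cells. In G2/M only cells HELLS and ATAD2 were above 1 in 2 of the 10 draws each, with ratios up to 1.32 and 1.23. Their directions in G2/M only cells thus depended on the draw. In cells with neither HELLS, below the minimum there, was below 1 in all 10 draws, with the interval below 1 in 5.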

How the results depend on the processing

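No paired analysis was possible because each dose had 1 library, and there was no library to leave out. Of the 20 members past the minimum over all cells, the number at least 1.5-fold lower was 3 with the deepest 5% of barcodes left out and 3 with each cell weighted equally (CDC6, RFC4 and TK1 in both, beside CCNE2 below the minimum), 2 with TMM factors (CDC6 and RFC4) and 0 with the 2 mM cells weighted to the class shares of 0 mM. Among these settings, shares of all genes were computed for the class weighting alone. None of the 20 was at least 1.5-fold higher in any of the 9 alternatives; below the minimum, DTL (log2 0.80) and GINS1 (log2 0.60) were so with that weighting. The median was 0.19 with that class weighting, which leaves out the cells too shallow to class, and from -0.28 to -0.03 in the other 8. With the class weighting 13 of the 36 members went from below to above 0. Among the 20 these were RRM2 (log2 0.088), FEN1 (log2 0.017), PCNA, MCM7, CLSPN and ATAD2. For S and G2/M cells the median was 0.15 without the deepest 5%, 0.13 at 500 UMIs, 0.14 at 2000 UMIs, and 0.10, 0.14, 0.10, 0.15, 0.15 and 0.11 with thinning seeds 3, 4, 6, 7, 8 and 10; it was above 0 in all 19 alternatives. For G2/M only cells it was 0.21 at 2000 UMIs and 0.35, 0.21, 0.22 and 0.38 with seeds 2, 3, 5 and 7. The contrast of S and G2/M cells over cells with neither was larger at 2 mM in all 18 alternatives, by 0.38 to 0.84 on the log2 scale. The difference in the share of S and G2/M cells, -7.33 points, was -1.12 points at 500 UMIs and ran from -11.9 to -1.12 points over 19 alternatives, each below 0. The difference in the share of thinned cells at or past 3 member UMIs ran from -8.62 to -3.68 points over 10 alternatives, thresholds of 2 and 5 included. The log2 ratio of mean member UMIs per thinned cell was -0.21 and -0.12 at 2000 UMIs. Median correlations at 0 mM and 2 mM were 0.12 and 0.11 at 500 UMIs, 0.27 and 0.32 at 2000 UMIs, and 0.086 and 0.047 in cells with under 3 G2/M anchor UMIs. With all deposited barcodes, at least 1000 UMIs per cell, at most 10% mitochondrial UMIs or barcodes 1 base apart merged, the median over all cells was from -0.05 to -0.03. With these, class thresholds of 2 or 5 UMIs, or the S anchors without the 3 with the most UMIs, the S and G2/M median was from 0.18 to 0.24. The cause of these changes was not tested. Depth limits 16 of the 36 members, which were below the minimum over all cells, and 30 of the 36 in cells with neither.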
